A study of Mus musculus with 7 samples.

Results

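Schwann cells wrap the axons of peripheral nerves, and the genes described here encode proteins of their myelin, their transcription factor Sox10 and their calcium-binding marker S100b. The genes were chosen by name: Mbp, Pmp22, Pmp2, Mag, Prx, Sox10, S100b and Gjc3, which had 15 of the 56605 probes on the array. Of these, 11 probes of 6 genes (Mbp, Pmp22, Mag, Prx, Sox10 and S100b) could be tested. A probe was tested if the gland signal cleared background by a wide margin, as called by the scanner software, on all arrays of one genotype or of both, which 34287 of all probes did. The probes of Pmp2 and Gjc3 did not pass it, and their values are given below without a test.

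The mice were nulliparous FVB females aged 20 to 25 weeks. RNA came from 1 abdominal gland of each, freed of lymph nodes and collected at diestrus. Wild-type littermates (3 mice) were compared with PRA transgenics (4 mice), bigenic animals in which GAL-4 under the cytomegalovirus promoter switches on a UAS-PR-A transgene for the A form of the progesterone receptor. That promoter is not specific to glia or to any other cell type of the gland, and the labels call the transgenic glands preneoplastic. Gland RNA carried Cy5 and was hybridized with a Cy3-labeled reference, Universal Mouse Reference RNA from 11 cell lines, whose listed tissues of origin include no nerve or glia. Each array held 1 animal and no dyes were swapped. All 7 arrays lay on 1 slide, wild-type in row 1 and PRA transgenic in row 2, so an effect of the row and one of genotype cannot be told apart.

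In myelinating Schwann cells, Sox10 and Egr2 switch on the myelin genes, and Pmp22 and Mbp encode proteins of the compact myelin sheath. Prx links the outer membrane of the cell to its cytoskeleton, Mag faces the axon, and Gjc3 forms gap junctions. In the mammary gland such cells sit along the nerves of the stroma and fat pad. Several of the genes are not confined to glia, since Sox10 is also made in mammary epithelium, S100b in adipocytes, Pmp22 in many tissues, and the Mbp locus also yields golli transcripts outside the nervous system.

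Detection differed between the genotypes in both dyes. In the gland channel 64.6% ± 1.80 (SD, n = 3) of the probes were well above background on wild-type arrays and 58.6% ± 1.73 (SD, n = 4) on PRA transgenic arrays. For the reference channel, the same RNA throughout, the shares were 53.6% ± 0.374 (SD, n = 3) and 49.2% ± 1.51 (SD, n = 4). Both differences had p = 0.0286 in a two-sided exact permutation test, the smallest p that the 35 possible splits allow. Saturated spots were not found (0 on each array), and precision is set by how few the arrays are. The glands carried the markers of their tissue: all 10 white adipocyte genes, all 8 luminal and all 8 basal epithelial genes examined passed the filter.

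No difference between PRA transgenics and wild-type passed the test in any of the 6 testable genes. At an adjusted p under 0.05, limma called 0 of the 6, against 4 of all 34287 probes tested (0.0117%). At an unadjusted p under 0.05 the count was also 0, against 9.02% of all probes. On each of the 11 probes the values of the genotypes overlapped, whereas over all probes 9.95% did not overlap. Cy5 alone gave the same counts of 0, against 0.0146% of all probes at an adjusted p under 0.05, 8.73% at an unadjusted p under 0.05 and 9.67% without overlap. The log2 fold changes of the brightest probes ran from -0.21 for Mbp to 0.32 for Pmp22, 4 positive and 2 negative, beside 54.2% positive over all probes tested, and their median was 0.17 beside 0.02. In Cy5 alone the signs split 3 and 3, beside 50.5% positive, and the median was -0.01, so the direction of the group as a whole depended on the channel used.

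**Figure D1:**
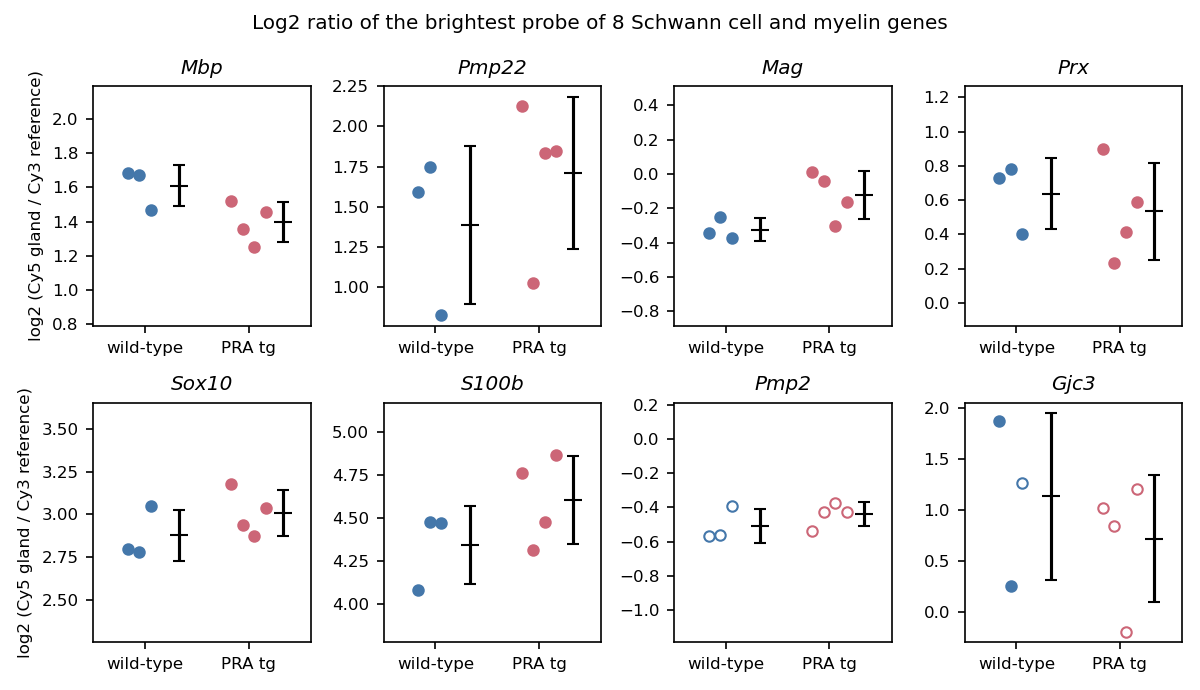
Log2 ratio of gland (Cy5) to reference (Cy3) on each array for the brightest probe of the 8 genes, each panel with its own axis. Points are animals in replicate order, filled where the gland signal was well above background and open where it was not, and bars give the mean ± SD of 3 wild-type and 4 PRA transgenic (PRA tg) arrays. The genotypes overlap in the panels of the 6 tested genes, Pmp22 spreads most among these, and Pmp2 has open points only. For Pmp2 and Gjc3 the reference was above background on no array, so their ratios do not compare the genotypes.

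Mbp encodes myelin basic protein, which holds the cytoplasmic faces of the myelin membrane together. Its brightest probe (A_52_P604195, chromosome 18) had log2 ratios of 1.68, 1.67 and 1.47 in wild-type mice 1, 2 and 3 and of 1.52, 1.36, 1.25 and 1.46 in PRA transgenic mice 1 to 4. The 2 highest values were wild-type, and PRA transgenic mouse 1 lay above wild-type mouse 3, so the groups overlapped. PRA transgenics differed from wild-type by -0.21 on the log2 scale (SE 0.12, adjusted p = 0.668, limma; SE is the standard error throughout), and by -0.20 in Cy5 alone. With a range of 0.43 over all animals, this probe was among the steadier ones, and 81.7% of the probes tested had at least as large an SD of the ratio. For the other Mbp probes, described next, the shares were 1.17% and 10.3%. The brightest probe was also well above background in the reference on all 7 arrays. The listed tissues of that RNA include no nerve or glia. Whether this probe reads a transcript of the myelin protein or a golli transcript was not tested.

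The other Mbp probes lie 14278 and 26044 bases further along the gene and are annotated to a different transcript. At the more distant one (A_55_P2889696) the log2 ratio was 2.74, 4.39 and 2.96 in wild-type and 0.32, 3.33, 3.35 and 2.45 in PRA transgenic mice. The reference stood well above background only on the array of PRA transgenic mouse 1, where its log2 level was -1.43 against -3.64 to -5.72 on the others, and that array gave the single low ratio. In Cy5 alone this probe read -1.98, -1.20 and -2.47 in wild-type and -1.13, -2.41, -1.76 and -1.21 in PRA transgenic mice. Here a Cy5 or Cy3 level is the log2 processed intensity minus the 75th percentile of its array. The order of the animals was thus not that of the brightest Mbp probe, with PRA transgenic mouse 1 now highest and wild-type mouse 3 lowest. Neither probe passed the test (log2 fold changes of -0.999 and 0.60, adjusted p = 0.762 and 0.735, limma). For the nearer one (A_52_P329451) the reference was above background on no array.

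Pmp22 encodes a membrane protein of compact myelin whose dosage is known to matter for peripheral nerve. One of its probes (A_55_P2040168) covers the end of the reading frame on chromosome 11 of mm9, chr11:62971862-62971917, plus strand. The stretch is shown because it places the probe in the coding part of the gene, and the capitals mark the stop codon:
Pmp22 coding probe: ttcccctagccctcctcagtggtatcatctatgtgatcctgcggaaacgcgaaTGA

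The brightest Pmp22 probe (A_55_P2503961, chr11:62972929-62972988), further 3′, had log2 ratios of 1.59, 1.75 and 0.83 in wild-type mice 1 to 3 and of 2.13, 1.03, 1.83 and 1.85 in PRA transgenic mice 1 to 4. Wild-type mouse 3 and PRA transgenic mouse 2 were low and PRA transgenic mouse 1 was high. The log2 fold change was 0.32 (SE 0.32, adjusted p = 0.816, limma), about as large as its error. The coding probe gave 1.12, 1.30 and 0.67 in wild-type and 1.74, 0.93, 1.61 and 1.34 in PRA transgenic mice, with a log2 fold change of 0.38 (SE 0.24, adjusted p = 0.695). Both probes therefore put the same animals at the top and at the bottom. At the brightest probes, Pmp22 varied more between animals in the ratio than the other 5 genes, over a 2.47-fold range, while its reference signal moved by no more than 1.09-fold. A Pmp22 probe of the opposite strand, annotated to the RNA AK035065, did not clear background on any array.

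Prx, periaxin of the Schwann cell membrane, had log2 ratios of 0.73, 0.78 and 0.40 in wild-type and of 0.90, 0.23, 0.42 and 0.59 in PRA transgenic mice at its brightest probe (A_55_P2149951, chr7:28304999-28305058). PRA transgenic mouse 1 was again highest and PRA transgenic mouse 2 lowest. Its log2 fold change was -0.10 (SE 0.19, adjusted p = 0.918, limma). A further probe 5′ of it gave 0.64, 0.75 and 0.93 against 0.77, 0.49, 0.89 and 0.54, and also differed between genotypes by -0.10 (adjusted p = 0.886).

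Mag encodes the myelin-associated glycoprotein of the inner, axon-facing membrane. It was the only one of the 6 whose brightest probe (A_55_P2647868, chr7:31692616-31692675) read no higher in gland than in reference in most animals, with log2 ratios of -0.35, -0.25 and -0.38 in wild-type and of 0.01, -0.04, -0.30 and -0.16 in PRA transgenic mice. PRA transgenic mouse 3 lay among the wild-type values. The log2 fold change was 0.20 (SE 0.12, adjusted p = 0.682, limma), and 0.09 in Cy5 alone. The probe is annotated to a single Ensembl transcript, ENSMUST00000186422. The probe annotated to the RefSeq transcript (A_55_P2062757) had log2 ratios of 0.58, 1.05 and 0.62 in wild-type and 1.01, 0.59, 1.15 and 0.48 in PRA transgenic mice, a difference of 0.06 (adjusted p = 0.966). At this second probe the reference was not well above background on the arrays of PRA transgenic mice 1 and 3, so its ratios do not rank the animals. In Cy5 the probes of Mag did not share an order, with PRA transgenic mouse 1 highest at the brightest and wild-type mouse 1 at the other.

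Pmp2, a fatty acid-binding protein of peripheral myelin, was well above background in the gland on 0 of 7 arrays. Its only probe (A_52_P89767, chr3:10182422-10182481, minus strand of mm9) is shown because the finding for Pmp2 rests on it alone, and the sequence is the whole of it:
Pmp2 probe: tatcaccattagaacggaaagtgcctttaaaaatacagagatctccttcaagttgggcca

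Its log2 Cy5 levels ran from -7.05 to -5.99, and the reference did not clear background on any array either. The plot of log2 ratios on each array shows this probe, but no fold change or comparison of the genotypes is taken from its ratios. Gjc3, the gap junction protein connexin 29 of Schwann cells, was near the limit of detection: its brighter probe (A_55_P2108948) was well above background in wild-type mice 1 and 2, not in wild-type mouse 3 and not in any of the 4 PRA transgenic mice. The log2 Cy5 levels were -4.28, -4.30 and -4.89 in wild-type and -4.28, -4.87, -5.70 and -4.43 in PRA transgenic mice. PRA transgenic mouse 1 was as bright as the detected wild-type mice. The wild-type mean of -4.49 was below -4.28, the upper limit that the PRA transgenic arrays set on their mean (on each array the higher of its detection limit and the probe's own level), so no fold can be given. The other Gjc3 probe was well above background on 0 of 7 arrays.

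Sox10, the transcription factor that Schwann cells need throughout life, had log2 ratios of 2.80, 2.78 and 3.05 in wild-type and of 3.18, 2.94, 2.88 and 3.04 in PRA transgenic mice (A_55_P2740763, chr15:78985343-78985402, minus strand). These values lay close together, within a 1.32-fold range. The log2 fold change was 0.13 (SE 0.13, adjusted p = 0.818, limma).

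Beneath the steady Sox10 ratio lay a wide spread in each dye. The log2 Cy5 level was 1.34, 1.98 and 3.26 in wild-type and 1.33, 3.13, 2.05 and 2.88 in PRA transgenic mice. Wild-type mouse 3 and PRA transgenic mice 2 and 4 were high, and wild-type mouse 1 and PRA transgenic mouse 1 low, a 3.82-fold range that cut across genotype. The reference, the same RNA on each array, read -1.45, -0.80 and 0.22 on the wild-type and -1.83, 0.20, -0.81 and -0.14 on the PRA transgenic arrays. Its 4.14-fold range followed the gland channel, with a change of 0.97 in log2 Cy3 for each unit of log2 Cy5 over the 7 arrays, which share the hybridization in both dyes. Among 24649 probes well above background in both dyes on all arrays, the SD of the reference had a median of 0.08. That of Sox10 was 0.80, and 57 probes (0.231%) including Sox10 reached it. In Cy5 alone the genotype difference was 0.15 (SE 0.56, adjusted p = 0.966). The cause of the shared movement was not tested.

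**Figure D2:**
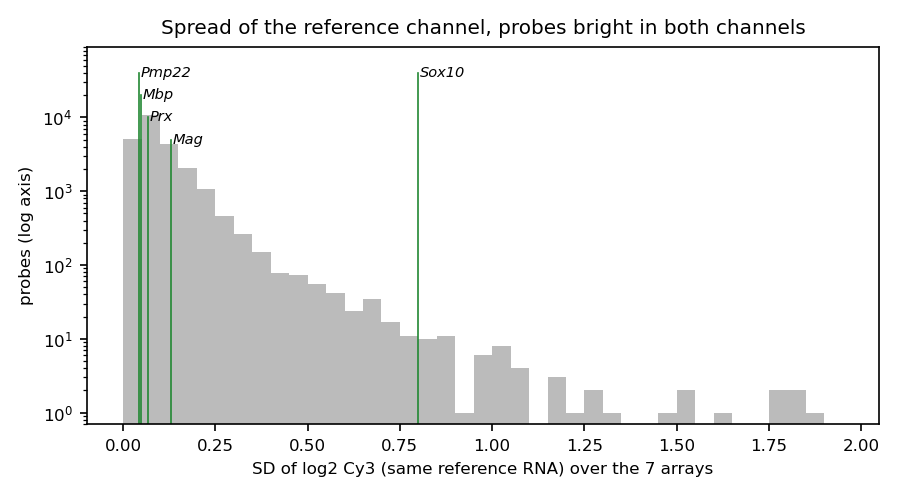
Number of probes (log axis) by the SD of the log2 reference (Cy3) level over the 7 arrays, for 24649 probes well above background in both dyes on all arrays. Lines mark the brightest probe of each named gene: Pmp22, Mbp and Prx lie in the bulk of the distribution, Mag at 0.13, and Sox10 in its tail at 0.80.

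S100b, the calcium-binding protein that marks Schwann cells and also occurs in fat, was far above the reference in every animal, with log2 ratios of 4.08, 4.48 and 4.47 in wild-type and 4.76, 4.31, 4.48 and 4.87 in PRA transgenic mice (A_51_P468260, chr10:75723783-75723842). PRA transgenic mice 1 and 4 read highest and wild-type mouse 1 lowest. The reference was not well above background on any PRA transgenic array, so these ratios do not rank the animals. The log2 fold change was 0.26 (SE 0.18, adjusted p = 0.722, limma), but in Cy5 alone it was -0.35 (SE 0.41, adjusted p = 0.851), and it was also negative after normexp background correction and loess normalization together. The gland channel read 0.80, 2.05 and 0.98 in wild-type and 1.78, 0.65, 0.41 and 0.86 in PRA transgenic mice, with wild-type mouse 2 and PRA transgenic mouse 1 high. For the reference the levels were -3.27, -2.42 and -3.48 on wild-type and -2.96, -3.65, -4.05 and -3.98 on PRA transgenic arrays, well above background on the 3 wild-type arrays only. As with Sox10, the reference moved with the gland, by 0.87 per unit.

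For Pmp22, Prx and Mbp the reference moved by -0.08, 0.09 and 0.12 per unit of Cy5, so their ratios carried the movement of the gland channel, and for Mag it moved by 0.44. Across all probes bright in both dyes, the SD of the reference was larger where the gland exceeded the reference more. Its median was 0.0729 for probes with a mean log2 ratio below 0, 0.109 for ratios from 2 to 3 and 0.278 for ratios above 4. Sox10, with 0.80 at a mean ratio near 3, stood above the median of probes with a like ratio.

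**Figure D3:**
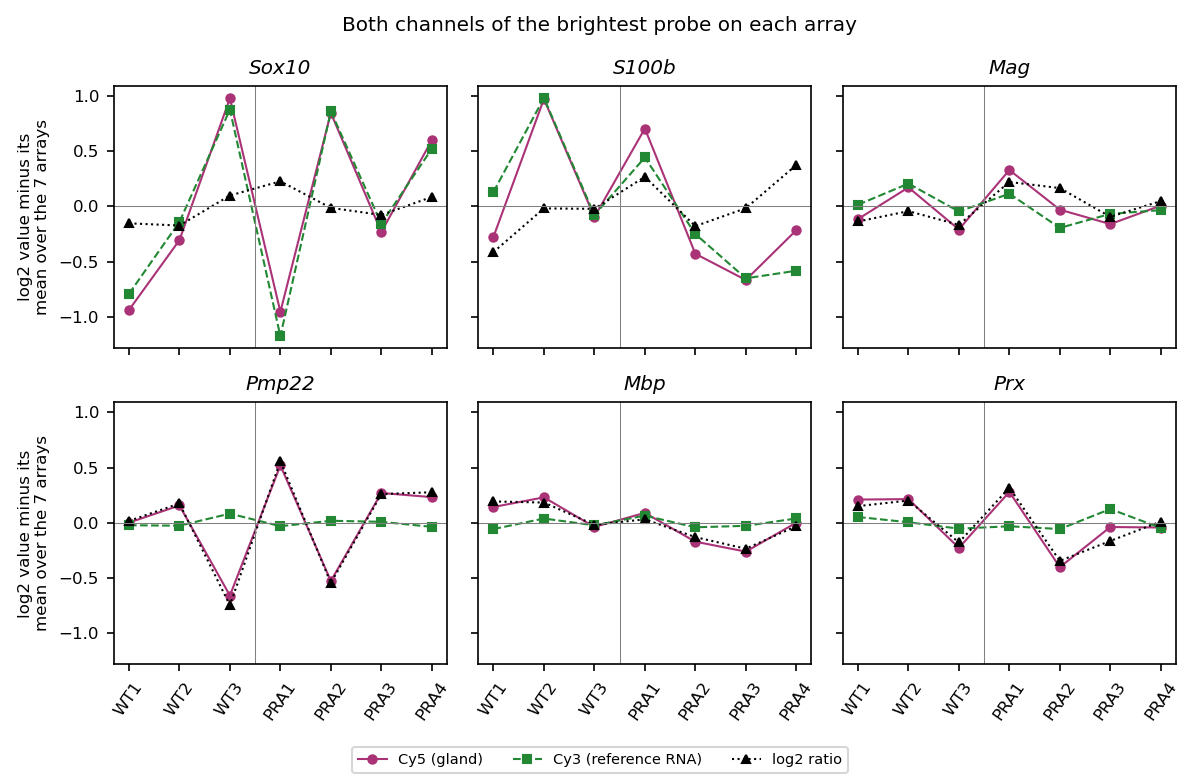
Log2 level of the brightest probe in the gland channel (Cy5), the reference channel (Cy3) and their log2 ratio on each array, each centered on its mean over the 7 arrays (WT, wild-type; PRA, PRA transgenic). For Sox10 and S100b the reference follows the gland, for Mag it follows in part, whereas for Pmp22, Mbp and Prx the reference is flat and the ratio follows the gland.

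Since bulk RNA was measured, fewer Schwann cells and less RNA per cell cannot be told apart in any of these values.

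A wider list of 28 other myelin and Schwann cell genes was read from the same fit. All had a probe, 24 were tested, and limma called 0 of them at an adjusted p under 0.05 (lowest adjusted p = 0.387). Their log2 fold changes were positive for 9 genes and negative for 15, beside 54.2% positive over all probes tested. Their median was -0.11 beside 0.02. At an unadjusted p under 0.05 there were 1 higher and 4 lower genes of 24, beside 4.54% higher and 4.48% lower over all probes, a count of 5 that became 2 without wild-type mouse 2, without wild-type mouse 3 or without PRA transgenic mouse 3, and 3 without PRA transgenic mouse 1. Of the 24, 1 higher and 2 lower did not overlap between genotypes, beside 5.42% and 4.53%. In Cy5 alone 1 gene was higher and 2 were lower at an unadjusted p under 0.05, beside 8.73% of all probes in either direction. Of the 24 genes, 21 were well above background on all arrays and 3 (Gldn, Fa2h and Nfasc) entered the tests through the wild-type arrays alone. All 3 are among the 15 negative genes, and Gldn is also among the 4 lower ones. The sign count and the median are thus partly set by the filter. Sox2 was well above background on no array. Cdh19, an adhesion protein of Schwann cell precursors, Foxd3, a neural crest factor, and Ugt8a, an enzyme of myelin lipid synthesis, were above it on 1 or 2 arrays.

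The gene with the lowest adjusted p was Gldn, gliomedin, which gathers sodium channels at the nodes of peripheral nerve. Its log2 ratio was 3.20, 3.55 and 3.10 in wild-type and 1.85, 0.74, 1.38 and 2.56 in PRA transgenic mice, so the groups did not overlap. The log2 fold change was -1.65 (SE 0.40, adjusted p = 0.387, limma). In Cy5 alone it was -0.93, the remainder being a higher reference reading on the PRA transgenic arrays by 0.73, and the reference was above background on no array. The gland signal was well above background on all 3 wild-type arrays and on 2 of the 4 PRA transgenic arrays. Gldn was thus tested only because it was detected in wild-type, the group where it was high, and its p and its lack of overlap are no independent sign of a difference. Its Cy5 levels of -3.07, -2.69 and -3.15 in wild-type and -3.58, -4.75, -4.11 and -3.19 in PRA transgenic mice lay closer together, with PRA transgenic mouse 4 just below wild-type mouse 3.

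Cldn19, a claudin of Schwann cell tight junctions, had a negative log2 fold change in the ratio (-1.23, SE 0.52, adjusted p = 0.545, limma) and a positive one in Cy5 alone (1.67). Its reference was well above background on 2 of the 7 arrays, and read -6.26, -6.24 and -6.18 on wild-type and -5.36, -1.49, -1.24 and -5.18 on PRA transgenic arrays. PRA transgenic arrays 2 and 3 were thus far brighter in the reference, and the gland channel was brightest on the same arrays, at -1.85 and -1.30 against -4.46 to -3.58 on the others.

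Scn7a, a sodium channel family member of non-myelinating Schwann cells, had log2 ratios of 4.79, 4.45 and 5.04 in wild-type and 5.53, 5.09, 5.39 and 5.13 in PRA transgenic mice. Every PRA transgenic value was above the wild-type values, and the log2 fold change was 0.52 (SE 0.19, adjusted p = 0.481, limma). In Cy5 alone the log2 fold change was 0.33 and the genotypes overlapped, with levels of -0.40, -0.28 and -0.83 in wild-type and 0.27, -0.53, -0.05 and -0.41 in PRA transgenic mice. A dimmer Scn7a probe had a log2 fold change of -1.14 in the ratio but of -0.006 in Cy5 alone. Its reference read 1.15 higher on the PRA transgenic arrays and was well above background on 1 array. For the brighter probe the reference was above background on no array.

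Egr2, the myelin transcription factor that many other cells also switch on shortly after a stimulus, had the highest mean Cy5 level of the list, and was the brightest in wild-type mice 1 and 3 and PRA transgenic mouse 3 only. It had log2 ratios of 1.74, -0.02 and 1.79 in wild-type and -0.37, -0.40, 0.68 and -0.98 in PRA transgenic mice. Wild-type mice 1 and 3 were high and wild-type mouse 2 lay among the PRA transgenics, with a log2 fold change of -1.44 (SE 0.55, adjusted p = 0.509, limma). Dhh, the hedgehog ligand that Schwann cells send to the nerve sheath, had a log2 fold change of -0.74 (SE 0.25, adjusted p = 0.463) in the ratio and of -0.23 in Cy5 alone.

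**Figure D4:**
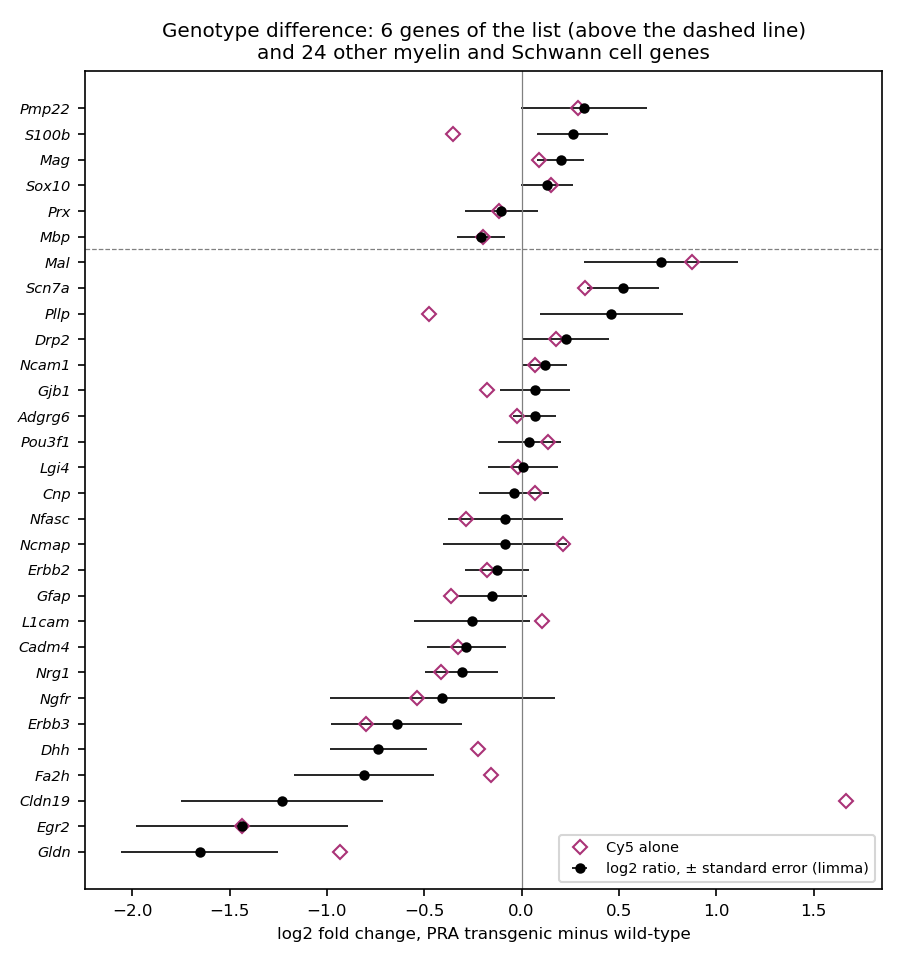
Log2 fold change of PRA transgenic against wild-type glands for the brightest probe of the 6 tested genes (above the dashed line) and of 24 other myelin and Schwann cell genes. Black points give the log2 ratio ± SE from limma and open diamonds Cy5 alone; the 6 genes stay between -0.21 and 0.32 in the ratio, S100b changes sign between the scales, Gldn and Egr2 lie furthest from 0 in the ratio, and Cldn19 has opposite signs on the scales.

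Genes of axons and of other glia gave a mixed picture. Of 12 axon and neuron genes 7 were tested and limma called 0, with the lowest adjusted p at 0.753 and 0 at an unadjusted p under 0.05. The neurofilament genes Nefl and Nefm and the synaptic vesicle gene Syt1 were well above background on no array, while Snap25, a membrane fusion protein, had the brightest probe of the list on every array. The summed linear Cy5 level of the list, in units of the 75th percentile of each array, was 12.7, 15.0 and 10.1 in wild-type and 13.2, 11.6, 12.5 and 11.3 in PRA transgenic mice. Of 6 oligodendrocyte genes only Mog was tested, and it differed between genotypes by 0.01 on the log2 scale (adjusted p = 0.992, limma). Opalin, Olig1 and Hapln2 were above background on no array. Of 6 melanocyte genes, which share Sox10, 5 were tested and 0 were called, and the probe of Mitf was the brightest on every array.

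The summed Cy5 level of the 8 genes themselves was 53.5, 62.2 and 45.1 in wild-type and 71.6, 45.4, 60.0 and 63.9 in PRA transgenic mice, and its largest part came from the Pmp22 probe on every array. For the wider list it was 25.8, 18.8 and 26.4 in wild-type and 17.5, 18.2, 21.1 and 17.7 in PRA transgenic mice, with Egr2, Lgi4 or Mal the brightest on each array. The ranges of the genotypes overlapped in both sums.

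Some of the genes shared the animals at the ends of their order. In Cy5, PRA transgenic mouse 1 was the highest animal for the brightest probes of Pmp22, Prx and Mag, and PRA transgenic mouse 2 or wild-type mouse 3 was the lowest. The animals between them were ordered differently, and at the second probes of Prx and Mag wild-type mouse 1 was the highest (-0.68 and -2.30). White adipocyte genes also had PRA transgenic mouse 1 highest and PRA transgenic mouse 2 lowest: their mean log2 Cy5 level was 6.74, 7.06 and 6.44 in wild-type and 7.26, 6.30, 6.64 and 6.74 in PRA transgenic mice, with Fabp4 or Cfd the brightest on each array. In their summed Cy5 level PRA transgenic mouse 1 led with 4051 and PRA transgenic mouse 2 was lowest with 2150. S100b, which is also made in adipocytes, was highest in Cy5 in wild-type mouse 2 (2.05) and PRA transgenic mouse 1 (1.78). These animals also had the highest adipocyte means, at 7.06 and 7.26. Its lowest animal was PRA transgenic mouse 3 (0.41), which was not the lowest for the adipocyte genes. Whether fat content had a part in the ranking of Pmp22, Prx, Mag and S100b was not tested.

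In Cy5, but not in the ratio, Sox10 had PRA transgenic mouse 1 at the low end. It was highest in wild-type mouse 3 and PRA transgenic mouse 2 and lowest in PRA transgenic mouse 1 and wild-type mouse 1, an order that the reference shared at its ends, whereas in the ratio PRA transgenic mouse 1 was the highest animal. Basal epithelial genes had a mean log2 Cy5 level of 2.89, 2.70 and 3.37 in wild-type and 3.13, 3.28, 3.22 and 3.08 in PRA transgenic mice, with wild-type mouse 3 and PRA transgenic mouse 2 highest and wild-type mouse 2 lowest. Luminal genes read 4.63, 4.08 and 4.77 in wild-type and 4.23, 4.67, 3.99 and 4.69 in PRA transgenic mice, with wild-type mouse 3 and PRA transgenic mice 4 and 2 highest, PRA transgenic mouse 3 lowest and wild-type mouse 1 high. The lowest animal of each list was thus not that of Sox10. Wild-type mouse 1, also low for Sox10, was next lowest in the basal list at 2.89. In the luminal list PRA transgenic mouse 1, at 4.23, lay above only PRA transgenic mouse 3 and wild-type mouse 2. The brightest gene was Acta2 on every array for the basal list, and Csn3 or Krt18 for the luminal list, and the part of epithelial content in the Sox10 level was not tested.

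Skeletal muscle genes varied widely between animals, and of the probes behind their mean that of Tnnc2 was the brightest in wild-type mice 1 and 3 and PRA transgenic mouse 4, and that of Acta1 in the others. Their mean log2 Cy5 level was 0.59, -2.43 and 2.34 in wild-type and -2.45, -2.65, -2.59 and 1.90 in PRA transgenic mice, so wild-type mice 1 and 3 and PRA transgenic mouse 4 stood apart. Mbp, Pmp22 and S100b did not single out these 3 animals. T cell genes were high in wild-type mouse 1 only, with a summed Cy5 level of 27.3 against 6.88 to 9.23 in the others. The same mouse had the highest Mbp ratio, just above wild-type mouse 2, but in Cy5 alone wild-type mouse 2 was highest for Mbp (3.20 against 3.11).

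**Figure D5:**
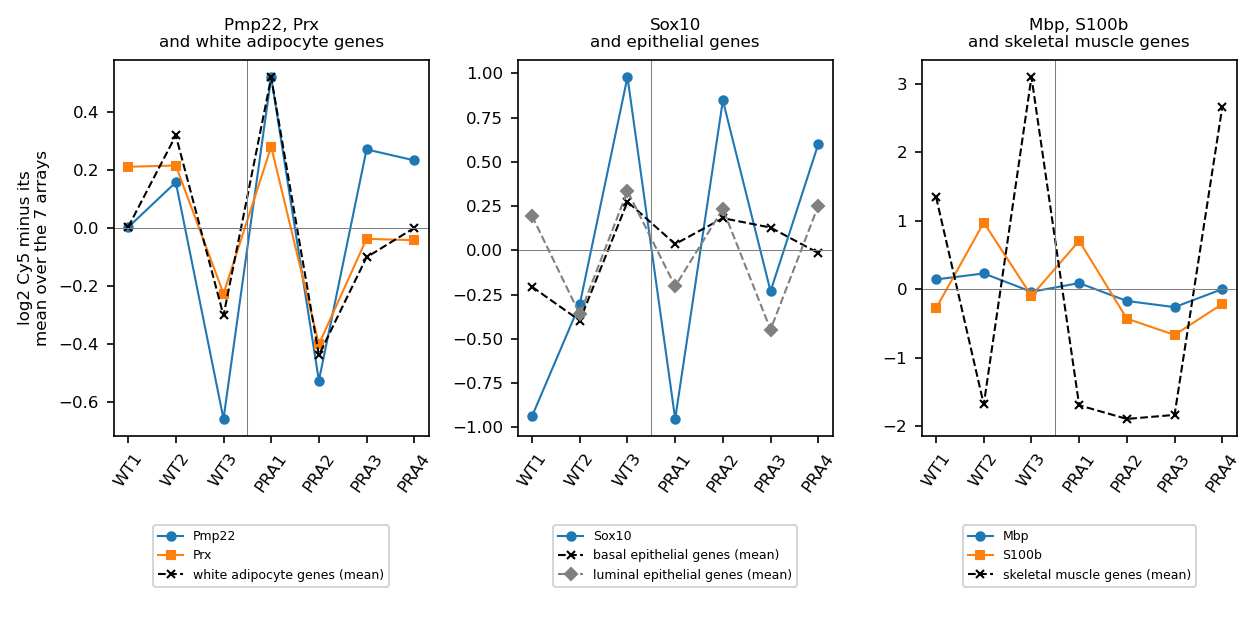
Log2 Cy5 level on each array, centered on its mean over the 7 arrays, for Pmp22 and Prx with the mean of 10 white adipocyte genes, for Sox10 with basal and luminal epithelial genes, and for Mbp and S100b with skeletal muscle genes. Pmp22 and Prx peak with the adipocyte genes on the array of PRA transgenic mouse 1 (PRA1). Sox10 is high on WT3 and PRA2 as the epithelial genes are. Its lowest array, PRA1, is not the lowest of either epithelial list, although WT1 is low for Sox10 and for the basal genes. The muscle genes are high on WT1, WT3 and PRA4 without Mbp or S100b.

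The word ACAANG, looser than the sites that Sox10 and its relatives bind, was counted in the 250 bases before the start of each gene. It reads CNTTGT on the opposite strand, and both strands were counted. RefSeq promoters of GRCm38.p6 were at hand for 5 of the 8 genes, Pmp22, Mag, Prx, S100b and Gjc3, and not for Mbp, Pmp2 and Sox10. The word occurred in 3 of the 5 and in 36.3% of 32851 promoters. Mag, which held the word, is shown beside Pmp22 and Prx, which did not, each from its most upstream start in the table. The regions are chr7:30914923-30915172 (minus strand) for Mag, chr11:63128732-63128981 (plus strand) for Pmp22 and chr7:27499074-27499323 (plus strand) for Prx, and capitals mark the matches:
Mag: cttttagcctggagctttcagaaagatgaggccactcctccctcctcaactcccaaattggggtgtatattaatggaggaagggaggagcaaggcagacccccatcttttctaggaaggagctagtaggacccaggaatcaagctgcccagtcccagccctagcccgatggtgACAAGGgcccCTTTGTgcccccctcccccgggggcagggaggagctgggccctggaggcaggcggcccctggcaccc
Pmp22: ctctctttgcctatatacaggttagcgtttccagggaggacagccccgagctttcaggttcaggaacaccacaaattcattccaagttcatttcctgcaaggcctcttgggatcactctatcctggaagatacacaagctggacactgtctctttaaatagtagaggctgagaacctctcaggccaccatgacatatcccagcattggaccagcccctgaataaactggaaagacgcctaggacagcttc
Prx: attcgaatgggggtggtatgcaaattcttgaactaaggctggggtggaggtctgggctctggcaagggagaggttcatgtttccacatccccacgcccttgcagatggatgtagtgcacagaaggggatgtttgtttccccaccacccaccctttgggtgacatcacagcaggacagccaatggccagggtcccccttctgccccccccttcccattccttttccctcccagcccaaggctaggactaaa

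Mag held 2 matches, 77 and 67 bases before the start, one on each strand. S100b and Gjc3 held 1 match each, 250 and 193 bases before it, and Pmp22 and Prx held 0 in this window. A match is a run of letters, not a bound site.

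Among the brightest probes of the 6 tested genes, only that of Pmp22 varied between animals by more than the median probe in the log2 ratio (SD 0.47 against 0.28 over 7 arrays). The 3 genes whose centered ratio profiles lay closest to it among 17446 were Hoxa5, 2510009E07Rik and Pon3, at root-mean-square differences of 0.08, 0.13 and 0.13. In Cy5 alone, a comparison added after the data had been seen, the closest to Pmp22 were Dipk2a, Tvp23bos and Dram1 (0.09, 0.10 and 0.11). On that scale the closest to Sox10 were Tmc5, Kcnh1 and Tfap2c (0.16, 0.21 and 0.21), and to S100b Lpgat1, Prr16 and Tln2 (0.13, 0.15 and 0.17). Among the genes of the group, Mag and Sox10 had the smallest difference between ratio profiles (0.13). Both varied little (SD 0.15 each), and flat profiles lie close in this measure whatever their order, so it does not show that they moved together. In Cy5 alone Sox10 and S100b were the furthest apart (1.099), with Sox10 and Pmp22 next (1.08). These genes also varied most in Cy5 (SD 0.81 for Sox10, 0.61 for S100b and 0.43 for Pmp22), which by itself widens such differences.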

How the data were processed

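Agilent 2-color arrays measured mammary gland RNA of 3 mice of the wild-type and 4 of the PRA transgenic genotype, 1 per array. The authors deposited scanner output of Agilent Feature Extraction, version 12.0 per the submitters' processing notes and 11.5.1.1 per the file headers, whose processed intensity values have the background taken off and the dyes brought to one scale. A deposited series table holds log2 values. Set against the scanner files, these proved to be log2 of Cy5 over Cy3 after each probe was centered on its median over the arrays, with column medians from -0.02 to 0.03. Groups and replicate numbers came from the sample labels.

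Here log2 of processed Cy5 over processed Cy3 intensity was computed, leaving out control and outlier spots and averaging repeated spots. A probe entered the tests (34287 of 56605) if every array of either genotype called its Cy5 well above background. Symbols came from RefSeq genes of GRCm38.p6, through the accession for 33903 probes, the symbol for 9458 and a former symbol for 488; for 12756 the deposited name was used. Positions of probes are on mm9, as deposited. The genotype test was lmFit with eBayes (limma 3.58.1, R 4.3.3), its p-values adjusted by Benjamini-Hochberg over all tested probes. Levels in 1 dye are log2 intensity minus the 75th percentile of the array. For each gene the probe brightest in Cy5 was read, and the others are given beside it. Known changes put into simulated data checked the fit.

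The 8 genes, the other lists and the tests were chosen with earlier results of these data known. Genes named beyond the 8 are those of the wider and axon lists that passed the threshold or, if none did, whose genotypes did not overlap, plus, for each of the 8 that varied more than the median probe, the 3 genes with the closest profile, and the gene with the brightest probe of every other list. Egr2 and Dhh, the remaining genes of the wider list at an unadjusted p under 0.05, and the genes named because they were not detected were chosen after their values were seen. Alternatives covered the background (normexp, offset 50, with loess), quantile normalization, Cy5 alone, the series table, a looser and a stricter filter, the methods' t-test, a variance trend, weighted arrays, a replicate block, each array left out, and the median probe of a gene. Profiles in Cy5 alone, the spread of each dye and the marker lists with single arrays left out were added after the data had been seen. 2 genes of the wider list are not reported here and were left out of its counts. A slide block was not possible with 1 slide.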

Additional observations from a re-analysis of the deposited data

Results flagged for a closer look

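Values were set against Dixon's 95% limit for the 4 PRA transgenic arrays in 52 groups of values (tested probes of the 8 genes and marker lists, in the ratio and in Cy5), of which chance would give about 1 in 20, or 2.6. There were 5 beyond it. One belonged to the 8 genes: the Mbp probe A_52_P329451 had log2 Cy5 levels of -2.48, -3.08, -2.37 and -2.40 in PRA transgenic mice 1 to 4, with mouse 2 lowest (gap over range 0.848). The same mouse was lowest for Pmp22 and Prx among the PRA transgenics.

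The other 4 belonged to cell type lists, and PRA transgenic mouse 4 was the highest each time. Skeletal muscle genes had mean log2 ratios of -0.38, -0.71, -0.57 and 3.02 (0.913) and mean log2 Cy5 levels of -2.45, -2.65, -2.59 and 1.90 (0.956). Macrophage genes had mean log2 Cy5 levels of 2.56, 2.63, 2.52 and 3.78 (0.912), and fibroblast genes mean log2 ratios of 2.20, 2.27, 2.24 and 2.76 (0.870). In that mouse the summed Cy5 level of the 8 genes, 63.9, lay within the range of the others.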

How the results depend on the processing

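None of the tested genes passed an adjusted p under 0.05 under any of the 17 alternatives for which they were counted, the lowest adjusted p being 0.439, for Mbp. At an unadjusted p under 0.05 quantile normalization called 1 of the 6, Sox10, and the other alternatives 0. Mbp, Pmp22, Mag, Prx and Sox10 kept their sign under all 18 alternatives each. Several of these could not change the sign: the series table, both filters, the t-test and the variance trend leave the fold change of a probe as it was. The replicate block gave the same fold changes as leaving out PRA transgenic replicate 4. S100b turned to -0.23 with normexp and loess and to -0.35 in Cy5 alone, and had no value where both dyes had to be above background. The median of the 6 genes, 0.17, became -0.0138 with normexp and loess, -0.0147 in Cy5 alone and 0.30 after quantile normalization. It lay between 0.11 and 0.22 when single arrays were dropped. Quantile normalization also moved Mbp to -0.06, Prx to -0.02 and Sox10 to 0.32. Normexp with loess moved Sox10 to 0.05 and Mag to 0.12, array weights moved Prx to -0.19, and the median probe moved Mag to 0.13. Dropping single arrays put Pmp22 between 0.04 (wild-type replicate 3 absent) and 0.55 (PRA transgenic replicate 2 absent), S100b between 0.13 (wild-type replicate 1 absent) and 0.36, Sox10 between 0.07 (PRA transgenic replicate 1 absent) and 0.22 (wild-type replicate 3 absent), and Prx between -0.22 and -0.00326, and the median of the wider list between -0.18 and -0.05.

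The number of probes called over the whole array was small and unstable: 4 as reported, 15 without the filter on dim probes, 11 with array weights and 1 by the methods' t-test after Benjamini-Hochberg adjustment (3158 at the methods' own limit on p). Dropping single arrays gave from 1 probe (PRA transgenic replicate 3 absent) to 16 (PRA transgenic replicate 4 absent), and 7 when wild-type replicate 2 was absent. With the replicate number as a block limma called 0 probes (3370 at an unadjusted p under 0.05) and still none of the 6 genes. The numbers did not pair the arrays, since deviations from the group mean correlated at 0.10, -0.30 and 0.04 for numbers 1, 2 and 3. Signal over background limits Pmp2, Gjc3, the dimmer Mbp probes and, in the reference, S100b, the dimmer Mag probe, Gldn, Cldn19 and Scn7a.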

Other observations

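Among the other marker lists, the tested T cell genes all had negative log2 fold changes in the ratio (7 of 7, median -0.67), as did the fibroblast genes (6 of 6, median -0.12), while 9 of 10 white adipocyte genes had positive ones (median 0.15), beside 54.2% positive over all probes. Single animals carried these counts: without wild-type mouse 1 the T cell genes split into 3 positive and 4 negative (median -0.07) and the fibroblast genes into 2 and 4 (median -0.01), and without PRA transgenic mouse 1 the adipocyte genes split into 6 and 4 (median 0.03). Without PRA transgenic mouse 2 the fibroblast genes also split into 2 and 4. Other single animals moved the medians further from 0. That of the T cell genes was -1.36 without wild-type mouse 2, and that of the adipocyte genes 0.26 without PRA transgenic mouse 2. For the fibroblast genes it was -0.34 without wild-type mouse 3 and -0.27 without PRA transgenic mouse 4. None of these genes passed an adjusted p under 0.05 with limma; at an unadjusted p under 0.05 there were 1 T cell gene lower, 1 fibroblast gene lower and 1 adipocyte gene higher, beside 4.48% lower and 4.54% higher over all probes. In Cy5 alone the adipocyte median was -0.08, with 3 genes positive and 7 negative. Endothelial genes had a median of 0.09, which was -0.06 without wild-type mouse 2 and -0.07 without wild-type mouse 3. It was 0.02 without PRA transgenic mouse 1 and 0.17 without PRA transgenic mouse 2. B cell genes had a median of -0.41, which was 0.19 without wild-type mouse 1 and -0.93 without wild-type mouse 3. Wild-type mouse 1 had a summed Cy5 level of 11.2 for these genes, against 1.08 to 1.91 in the others. Brown adipocyte genes had a median of 0.26 over 4 tested genes. It was 0.11 without wild-type mouse 2, 0.17 without PRA transgenic mouse 1 and 0.39 without wild-type mouse 1. These genes were lowest in PRA transgenic mouse 4 and wild-type mouse 2 (summed Cy5 levels of 35.8 and 46.1 against 78.8 to 105 in the others).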
